A study of Mus musculus with 16 samples.

Results

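Transcript levels of 10 genes of erythropoietin and KIT signalling were followed in late erythroblasts of *Ypel4*+/+ and *Ypel4*-/- mice. The set held the cytokine receptors *Epor* and *Kit*, the kinases *Jak2* and *Lyn*, the transcription factors *Stat5a* and *Stat5b*, the inhibitors *Cish*, *Socs1* and *Socs3*, and the kinase gene *Pim1*. The genes were taken by symbol from the deposited counts, where they are 10 of 46078 genes listed, and the rule itself used no measured value.

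Erythropoietin (EPO) is the hormone that keeps red cell precursors alive. It joins EPO receptors on the cell surface, which brings bound JAK2 kinases together, and JAK2 then phosphorylates STAT5A and STAT5B. STAT5 moves to the nucleus and switches on survival genes and the inhibitors that end the signal. KIT is the receptor for stem cell factor, acts in early progenitors, and is lost from the cell surface as terminal erythroid differentiation (TED) proceeds. The need for EPO likewise ends before the last nucleated stages.

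RNA was sequenced from Poly-E (polychromatic erythroblasts) and Ortho-E (orthochromatic erythroblasts, the last nucleated stage), sorted from untreated bone marrow by CD44 and Ter119 with dead cells excluded. Each of the 4 groups, *Ypel4*+/+ Poly-E, *Ypel4*-/- Poly-E, *Ypel4*+/+ Ortho-E and *Ypel4*-/- Ortho-E, held 4 libraries. The *Ypel4*-/- mice were homozygous for the trap allele Ypel4<tm1a(EUCOMM)Wtsi>, which disrupts *Ypel4* in every tissue, and the *Ypel4*+/+ mice were wild-type at that locus. The line is given for all mice as the WtsiIeg strain of this allele on C57BL/6N-A<tm1Brd>, and their age is not given in the sources used here. Same-numbered Poly-E and Ortho-E libraries of a genotype were read as 1 mouse. Nothing states that the 4 replicates came from separately handled cell suspensions, so p-values measure the spread between these libraries.

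Depth ranged from 2670173 to 12451234 counts per library, and levels below are given as CPM, the usual scaling of a gene's counts to the library total. The label check held in every library, with *Ypel4* at a mean of 868 and 24.8 CPM in *Ypel4*+/+ and *Ypel4*-/- Poly-E and at 3163 and 135 CPM in Ortho-E. The log2 fold changes were -5.18 (adjusted p = 1.6e-06) and -4.58 (adjusted p = 4.87e-24) by edgeR's quasi-likelihood test, although with the replicate number as a block the Poly-E value of -5.19 had an adjusted p of 0.286. The summed level of 10 erythroid markers was 90792 to 105593 CPM in Poly-E and 158079 to 193323 CPM in Ortho-E, so that abundant erythroid transcripts took up a larger share of each Ortho-E library. Of the other lists, 5 megakaryocyte and platelet markers summed to 40.8 to 51.5 CPM in Poly-E and 63.7 to 75.2 CPM in Ortho-E. Nearly all of this was *Itga2b* and *Gp9*, with *Gp1bb* at 0. The 8 B cell markers summed to between 15.4 and 52.5 CPM, and 10 neutrophil and monocyte markers to between 2.73 and 12.9 CPM. The 7 island macrophage markers summed to between 1.79 and 6.80 CPM, and 6 T cell markers to at most 1.25 CPM.

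The scaling sets the size and sign of a change between Poly-E and Ortho-E. With plain library totals the median log2 fold change of all tested genes was -1.45 in *Ypel4*+/+ and -1.47 in *Ypel4*-/- cells. With TMM scaling, which sets the bulk of genes near 0 and was used for the tests, it was -0.19 and -0.09. Of 11747 genes tested in *Ypel4*+/+ cells 58.5% were called at an adjusted p of at most 0.05, 3097 higher in Ortho-E and 3774 lower, and of 11973 in *Ypel4*-/- cells 61% were called, 3538 higher and 3767 lower. The higher share of the calls was 45.1% and 48.4% with TMM and 14.7% and 15.5% with library totals. Changes between populations are therefore given on the TMM scale, relative to the typical gene, and the direction with library totals is given beside those whose sign turns. In sorted bulk cells fewer cells of a kind and less RNA per cell cannot be told apart.

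**Figure D1:**
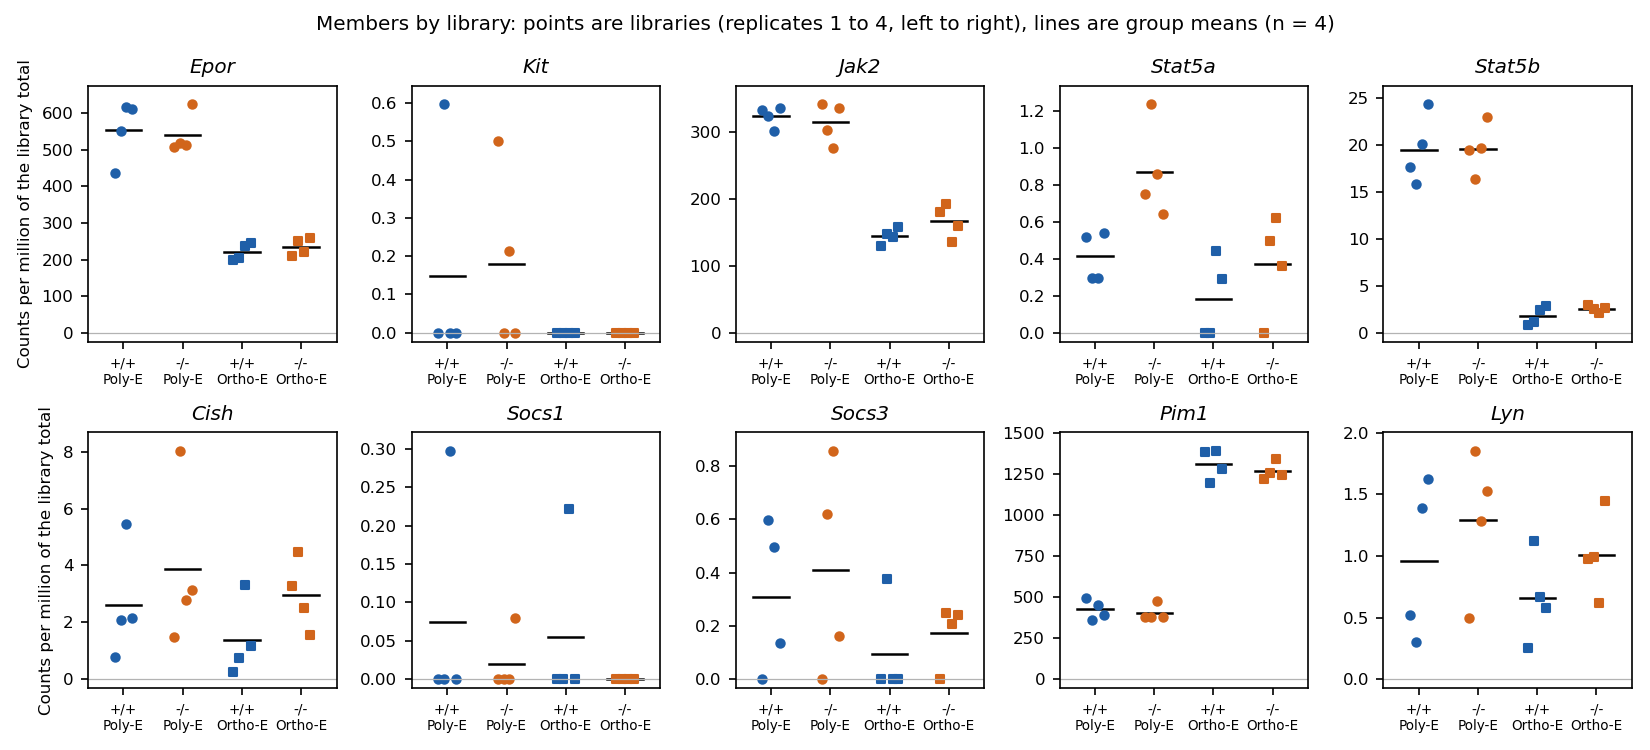
Level of each of the 10 genes in every library, in CPM by library totals (y axis, linear, a separate scale for each gene), for the 4 groups on the x axis, with blue for *Ypel4*+/+, orange for *Ypel4*-/-, circles for Poly-E, squares for Ortho-E and a line at each group mean. *Pim1* sits at 364 to 496 in Poly-E and 1197 to 1392 in Ortho-E, *Stat5b* drops from 15.8 to 24.4 down to 0.768 to 2.94, and *Kit*, *Socs1* and *Socs3* stay below 1 in every library.

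Of the 10 genes, 3 were abundant. Per kilobase of exon, the scale on which genes can be compared, *Ypel4*+/+ Poly-E cells held *Epor* at 302.7 ± 45.95 CPM per kb, *Pim1* at 161 ± 22.7, *Jak2* at 64.3 ± 3.06 and *Stat5b* at 3.52 ± 0.667 (SD, n = 4), and the ranges of these neighbours did not overlap. In *Ypel4*+/+ Ortho-E cells *Pim1* came before *Epor*, at 498 ± 34.8 against 121 ± 12.1 CPM per kb, followed by *Jak2* at 28.7 ± 2.38 (SD, n = 4), again without overlap. The other 6 genes lay at or below 1.25 CPM per kb in every library, and in *Ypel4*+/+ cells each overlapped with its neighbour in the order. The order of the 4 highest genes in Poly-E and of the 3 highest in Ortho-E was the same in both genotypes. In *Ypel4*-/- Ortho-E cells *Cish*, at 0.459 ± 0.191, and *Stat5b*, at 0.458 ± 0.0653 CPM per kb (SD, n = 4), could not be placed.

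*Epor* (ENSMUSG00000006235, GRCm38 chr9:21958899-21963576, minus strand, 8 exons) encodes the EPO receptor. In Poly-E it was at 435.8, 550.7, 617.3 and 610.7 CPM in *Ypel4*+/+ replicates 1 to 4, and at 508.3, 517.7, 513.2 and 624.4 CPM in *Ypel4*-/- replicates. In Ortho-E it was at 199.8, 205.2, 235.7 and 244.8 CPM in *Ypel4*+/+ and at 209.9, 249.9, 220.9 and 258.2 CPM in *Ypel4*-/- libraries. Every Ortho-E library thus lay below every Poly-E library, and the genotypes overlapped in both populations. As a share of the library *Epor* was 2.50-fold lower in *Ypel4*+/+ Ortho-E than in Poly-E, at 221 ± 22.2 against 554 ± 84.1 CPM (SD, n = 4).

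Relative to the typical gene *Epor* did not differ detectably between populations in *Ypel4*+/+ cells, with a log2 fold change of -0.03 (standard error, SE, 0.12, 95% interval -0.29 to 0.22, adjusted p = 0.826, edgeR). The sign was not stable, since DESeq2's own test gave 0.10 (adjusted p = 0.465), whereas library totals gave -1.32 (adjusted p = 8.68e-10). In *Ypel4*-/- cells the log2 fold change was 0.21 (SE 0.12, adjusted p = 0.142, edgeR). There the mouse as a block gave 0.21 with an adjusted p of 0.0271, and leaving out Poly-E replicate 4, the library in which *Epor* was highest, gave 0.34 with an adjusted p of 0.0156, while the stricter filter filterByExpr gave 0.35 with an adjusted p of 0.00868. Library totals gave -1.20 (adjusted p = 3.79e-11). Set against the median of all genes, the *Ypel4*+/+ change was 0.16 with TMM and 0.13 with library totals, and the *Ypel4*-/- change 0.30 and 0.27.

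The RefSeq promoter window of *Epor*, from 250 bases before to 50 bases after the start (assembly GRCm38.p6), holds the letters AGATAA, bound by GATA factors, read on the other strand as TTATCT, which begins at base -54 from the start. It is shown because *Epor* was the most abundant of the 10 genes in Poly-E. AGATAA on either strand stands in 11.2% of 32851 promoter windows of this length, so that a match is a description only. The 100 bases before the start, chr9:21963577-21963676 on the minus strand, read 5′ to 3′ with the match in capitals.
Epor: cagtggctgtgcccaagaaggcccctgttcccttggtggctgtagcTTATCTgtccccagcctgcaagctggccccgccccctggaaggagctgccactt

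*Kit* (ENSMUSG00000005672, GRCm38 chr5:75574916-75656722, plus strand, 21 exons) was at the limit of detection. Of 16 libraries 3 held a count of *Kit*, 2 counts in *Ypel4*+/+ Poly-E replicate 2 and 2 and 1 in *Ypel4*-/- Poly-E replicates 1 and 3. All 8 Ortho-E libraries were at 0, which allows up to 0.167 CPM in the *Ypel4*+/+ and 0.148 CPM in the *Ypel4*-/- group (3 counts over the group, counting error only). With 5 counts in all *Kit* entered no test. Early progenitor markers were at a summed 8.26 to 12.5 CPM in Poly-E and 1.54 to 4.90 CPM in Ortho-E over 5 genes, nearly all of it *Myb*, and 6 mast cell and basophil markers were at 0 to 3.09 CPM, with *Ms4a2* at 0 in every library. Their part in the few *Kit* counts was not tested. The ligands were as low, with *Epo* at 0 counts in all 16 libraries and *Kitl* at 3 counts in all.

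*Jak2* (ENSMUSG00000024789, GRCm38 chr19:29251828-29313080, plus strand, 25 exons) encodes the kinase that EPOR and related receptors carry. In Poly-E it was at 332.8, 323.7, 301.6 and 335.6 CPM in *Ypel4*+/+ and at 340.8, 302.9, 276.2 and 335.0 CPM in *Ypel4*-/- replicates 1 to 4. In Ortho-E the values were 129.1, 147.9, 143.2 and 157.8 CPM in *Ypel4*+/+ and 179.9, 192.3, 134.8 and 159.5 CPM in *Ypel4*-/- libraries. All 8 Ortho-E libraries lay below all 8 Poly-E libraries in plain CPM, the mean being 2.24-fold lower in *Ypel4*+/+ and 1.88-fold lower in *Ypel4*-/- cells.

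Relative to the typical gene *Jak2* rose in *Ypel4*-/- Ortho-E cells, with a log2 fold change of 0.50 (SE 0.13, adjusted p = 0.000825, edgeR). In each of the 4 *Ypel4*-/- mice the TMM-scaled level was higher in Ortho-E, by 0.25 to 0.53 on the log2 scale. In *Ypel4*+/+ cells the change was 0.12 (SE 0.12, adjusted p = 0.388), and it was above 0 in 3 of 4 mice. That call depended on the processing, because DESeq2 gave 0.26 (adjusted p = 0.0126), the filter filterByExpr 0.30 (adjusted p = 0.01) and the fit without *Ypel4*+/+ Poly-E replicate 1 gave 0.27 (adjusted p = 0.0275). With library totals *Jak2* fell in both genotypes, by 1.16 (adjusted p = 1.43e-09) and 0.92 (adjusted p = 5.21e-08) on the log2 scale. Set against the median of all genes, the *Ypel4*+/+ change of *Jak2* was 0.31 with TMM and 0.29 with library totals. The *Ypel4*-/- change was 0.59 and 0.56. The interaction of genotype and population was 0.24 (SE 0.17, adjusted p = 1.00, edgeR), so a difference between the genotypes in this change was not shown.

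*Lyn* (ENSMUSG00000042228, GRCm38 chr4:3678115-3813122, plus strand, 13 exons) encodes a SRC family kinase that joins activated EPO and KIT receptors. It had 95 counts over the 16 libraries, with 2, 1, 14 and 12 in *Ypel4*+/+ Poly-E, 2, 6, 6 and 19 in *Ypel4*-/- Poly-E, 1, 3, 3 and 4 in *Ypel4*+/+ Ortho-E and 3, 4, 3 and 12 in *Ypel4*-/- Ortho-E replicates. All groups overlapped, between 0.256 and 1.85 CPM. On the TMM scale Ortho-E against Poly-E gave a log2 fold change of 0.44 (SE 0.63, adjusted p = 0.571) in *Ypel4*+/+ and 1.06 (SE 0.49, adjusted p = 0.063) in *Ypel4*-/- cells by edgeR, and both values were below 0 with library totals. *Lyn* is also abundant in B cells and myeloid cells, and their part in its counts was not tested. For these samples the labels name CD44 and Ter119 as the sorting antibodies, while the methods also list B220, CD3 and Gr-1 antibodies for flow cytometry and sorting in general. The 8 B cell markers summed to 23.6 to 38.5 CPM in *Ypel4*+/+ and 33.4 to 52.5 CPM in *Ypel4*-/- Poly-E, and to 15.4 to 22.4 CPM in *Ypel4*+/+ and 27.4 to 38.2 CPM in *Ypel4*-/- Ortho-E, without overlap of the genotypes in Ortho-E. In the transcript annotation 17.3% of the 75-base windows of *Lyn* recur in other genes, *Gm11787* sharing the most. Reads that map to several places were not counted. The annotation also puts 4 genes over the span of *Lyn*, and whether their exons meet those of *Lyn* was not checked.

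*Stat5b* was the member that fell, and *Stat5a* was nearly absent. *Stat5b* (ENSMUSG00000020919, GRCm38 chr11:100780731-100850724, minus strand, 19 exons) had 68, 53, 203 and 180 counts in *Ypel4*+/+ and 78, 53, 92 and 286 counts in *Ypel4*-/- Poly-E replicates 1 to 4. In Ortho-E it had 3, 3, 11 and 20 counts in *Ypel4*+/+ and 9, 10, 10 and 22 counts in *Ypel4*-/- libraries. The mean level went from 19.5 ± 3.70 to 1.81 ± 1.02 CPM in *Ypel4*+/+ and from 19.6 ± 2.69 to 2.54 ± 0.362 CPM in *Ypel4*-/- cells (SD, n = 4). Every Ortho-E library was below every Poly-E library, on the plain as on the TMM scale.

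The log2 fold change of *Stat5b* was -2.01 (SE 0.28, adjusted p = 7.53e-07) in *Ypel4*+/+ and -1.57 (SE 0.24, adjusted p = 6.41e-07) in *Ypel4*-/- cells by edgeR. The level fell in all 8 mice, by 1.42 to 2.85 on the log2 TMM scale. Since the typical gene fell with library totals, *Stat5b* fell there by more, with -3.29 and -2.97, but its distance from the median of all genes was alike, at -1.81 with TMM and -1.84 with library totals in *Ypel4*+/+ cells. The genotypes did not differ detectably, with a log2 fold change of -0.04 (95% interval -0.38 to 0.30) in Poly-E and 0.32 (95% interval -0.46 to 1.10) in Ortho-E, where the edgeR adjusted p-values were 1.00 and 0.996.

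*Stat5a* (ENSMUSG00000004043, GRCm38 chr11:100859351-100885169, plus strand) lies next to *Stat5b* and had 41 counts in all. Poly-E replicates 1 to 4 held 2, 1, 3 and 4 counts in *Ypel4*+/+ and 3, 4, 4 and 8 in *Ypel4*-/- cells. Ortho-E held 0, 0, 2 and 2 counts in *Ypel4*+/+ and 0, 2, 3 and 3 in *Ypel4*-/- cells. Per kilobase the mean of *Stat5b* was 60.6 times that of *Stat5a* in *Ypel4*+/+ and 29.0 times in *Ypel4*-/- Poly-E, and 12.7 and 8.83 times in Ortho-E, ratios that rest on 4 to 19 *Stat5a* counts a group. Per kilobase of the longest transcript the *Ypel4*+/+ Poly-E means were 3.74 and 0.105 CPM, closer to each other. *Stat5a* did not overlap between genotypes in Poly-E, at 0.298 to 0.542 against 0.643 to 1.24 CPM, on 10 and 19 counts. The share of all genes without such an overlap was not computed, so this separation cannot be read as a genotype difference. The log2 fold change of 0.92 (SE 0.59, adjusted p = 1.00, edgeR) did not pass the test. In that comparison 0.00807% of all genes were called. The B cell marker sum had a median of 28.5 CPM in *Ypel4*+/+ and 41.7 CPM in *Ypel4*-/- Poly-E, and its part in the *Stat5a* counts was not tested. Of the 75-base windows 6.15% of those of *Stat5a* and 7.53% of those of *Stat5b* recur in other genes. For each the other *Stat5* gene shares the most. Whether these windows cost either gene unique counts was not checked. The span of *Stat5a* overlaps that of Stat3 in the annotation.

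Of the inhibitors that STAT5 switches on, *Socs1* and *Socs3* were near the floor in all groups and *Cish* was low, with 244 counts over all 16 libraries. *Cish* (ENSMUSG00000032578, GRCm38 chr9:107296026-107302784, plus strand), whose product blocks STAT5 at the receptor, was the highest of them per kilobase. In Poly-E it was at 0.781, 2.09, 5.46 and 2.17 CPM in *Ypel4*+/+ and 1.502, 8.036, 2.786 and 3.132 CPM in *Ypel4*-/- replicates 1 to 4. In Ortho-E it was at 0.256, 0.749, 3.33 and 1.16 CPM in *Ypel4*+/+ and 3.26, 4.47, 2.49 and 1.57 CPM in *Ypel4*-/- libraries. The ranges of the genotypes overlapped in both populations, and those of the populations overlapped in both genotypes.

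*Cish* passed the test as higher in *Ypel4*-/- Ortho-E against Poly-E cells, with a log2 fold change of 1.01 (SE 0.43, adjusted p = 0.0451, edgeR), and had 0.25 (SE 0.61, adjusted p = 0.754), or -1.02 with library totals, in *Ypel4*+/+ cells. The call rested on single libraries: without Poly-E replicates 1, 3 or 4 or Ortho-E replicates 1, 2 or 3 the adjusted p lay between 0.0812 and 0.197, with values of 0.71 to 1.00. In a fit of all 16 libraries it was 0.228, and library totals gave -0.39 (adjusted p = 0.413). The interaction was 0.65 (SE 0.87, adjusted p = 1.00, edgeR). The span of *Cish* overlaps those of *Gm17040* and *Gm17041*, and counting without strand could not separate them where exons overlap antisense.

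*Socs3* (ENSMUSG00000053113, GRCm38 chr11:117966079-117970047, minus strand) and *Socs1* (ENSMUSG00000038037, GRCm38 chr16:10783808-10785536, minus strand) encode inhibitors that bind JAK kinases. *Socs3* had 21 counts in 10 of 16 libraries and no more than 0.857 CPM in any. *Socs1* had 5 counts in 3 libraries and was at 0 in all 4 *Ypel4*-/- Ortho-E libraries. *Socs3* was tested in *Ypel4*-/- cells, with a log2 fold change of 0.51 (SE 1.00, adjusted p = 0.682, edgeR) for Ortho-E against Poly-E, or -0.78 with library totals, and in Poly-E between genotypes, with 0.11 (SE 0.97, adjusted p = 1.00, edgeR). *Socs1* entered no test.

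Of the 10 genes 9 had a RefSeq promoter, all but *Lyn*, and the letters TTCNNNGAA, the core that STAT5 and other STAT factors bind, stood in those of *Cish* and *Socs3* and in none of the other 7. TTCNNNGAA reads alike on both strands and stands in 8.30% of the 32851 promoter windows. The sequences are shown because these STAT5 feedback genes carry the motif while their transcripts were scarce in late erythroblasts. The capitals mark TTCNNNGAA, at bases 1 and 12 from the start in *Cish* (chr9:107296579-107296678, plus strand) and at base -154 in *Socs3* (chr11:117969447-117969546, minus strand), both in GRCm38.p6 and read 5′ to 3′.
Cish: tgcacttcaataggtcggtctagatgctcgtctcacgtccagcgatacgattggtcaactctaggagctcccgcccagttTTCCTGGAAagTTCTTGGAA
Socs3: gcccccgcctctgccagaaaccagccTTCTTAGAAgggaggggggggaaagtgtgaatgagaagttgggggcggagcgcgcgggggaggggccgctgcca
Neither motif was found in the windows of *Pim1*, *Jak2*, *Kit*, *Stat5a*, *Stat5b* or *Socs1*, which says only that these letters are not there.

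*Pim1* was the member that rose, on each scale and in each mouse. *Pim1* (ENSMUSG00000024014, GRCm38 chr17:29490812-29496111, plus strand, 6 exons) encodes a serine/threonine kinase that favours survival and whose transcription STAT5 raises. In Poly-E it was at 496.2, 363.7, 452.4 and 389.9 CPM in *Ypel4*+/+ and 378.6, 377.7, 473.6 and 381.6 CPM in *Ypel4*-/- replicates 1 to 4. In Ortho-E it was at 1382, 1197, 1392 and 1284 CPM in *Ypel4*+/+ and 1221, 1256, 1344 and 1245 CPM in *Ypel4*-/- libraries. The lowest Ortho-E library was far above the highest Poly-E library, and the genotypes overlapped in both populations.

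The mean of *Pim1* was 3.09-fold higher in *Ypel4*+/+ and 3.14-fold higher in *Ypel4*-/- Ortho-E cells in plain CPM. Relative to the typical gene the log2 fold change was 2.91 (SE 0.14, adjusted p = 1.76e-15) in *Ypel4*+/+ and 3.07 (SE 0.13, adjusted p = 2.84e-20) in *Ypel4*-/- cells by edgeR. In the 8 mice the change ranged from 2.73 to 3.05 on the log2 TMM scale and from 1.48 to 1.73 with library totals. Of the *Pim* family, counted per kilobase, *Pim1* made up 93.1% ± 0.862 in *Ypel4*+/+ Poly-E and 96.3% ± 1.30 in *Ypel4*+/+ Ortho-E (SD, n = 4), with *Pim2* as most of the rest. *Pim1* overlaps the gene *Gm26885*, and 8.58% of its 75-base windows recur in other genes, *Gm26885* sharing the most.

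**Figure D2:**
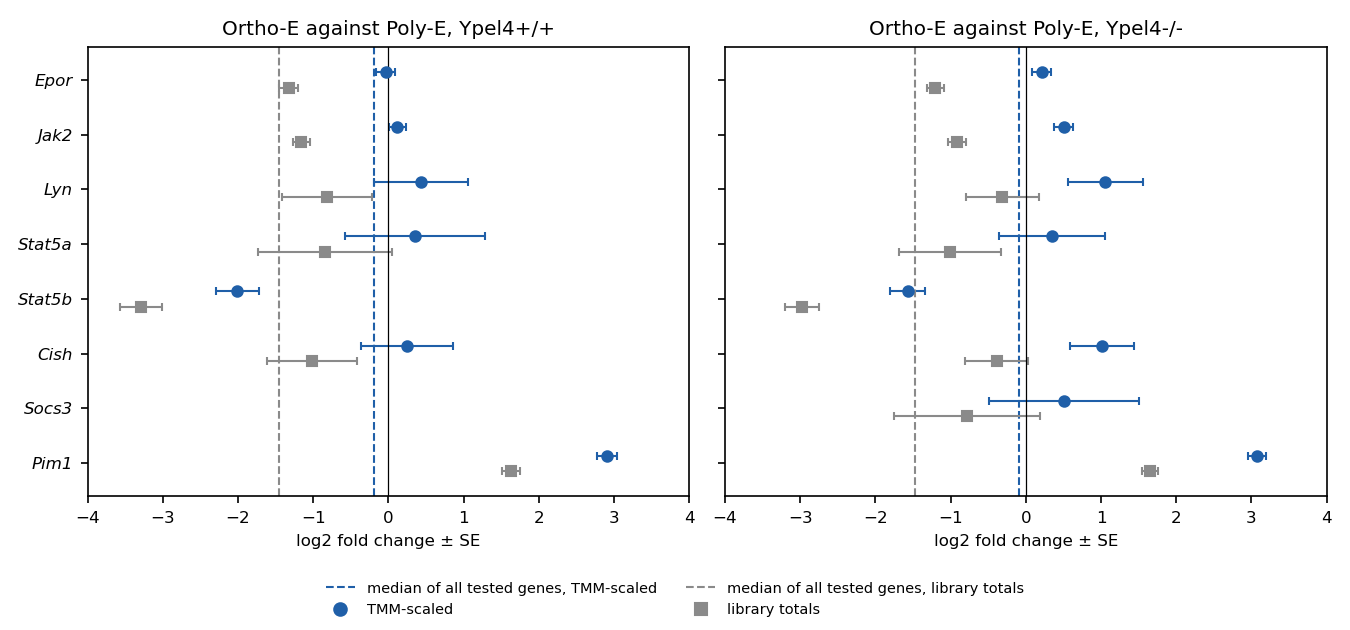
Log2 fold change ± SE (x axis) of Ortho-E against Poly-E for the 8 members tested (y axis), in *Ypel4*+/+ (left) and *Ypel4*-/- cells (right), with TMM scaling (blue circles) and with library totals (grey squares); *Socs3* was tested in *Ypel4*-/- cells only. Dashed lines mark the median of all tested genes on each scale, -0.19 and -1.45 on the left and -0.09 and -1.47 on the right, and the distance of each member from its line differs little between scales, with *Pim1* above and *Stat5b* below.

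In all, 7 of the 10 members had enough counts for a test in *Ypel4*+/+ cells, and 1 rose (*Pim1*) and 1 fell (*Stat5b*) in Ortho-E, or 28.6% beside 58.5% of all genes tested (26.4% higher and 32.1% lower). In *Ypel4*-/- cells 8 were tested, and 3 rose (*Pim1*, *Jak2* and *Cish*) and 1 fell (*Stat5b*), or 50% beside 61% of all genes (29.5% higher and 31.5% lower). The median log2 fold change of the tested members was 0.25 in *Ypel4*+/+ and 0.51 in *Ypel4*-/- cells. With library totals 4 members were called in *Ypel4*+/+ cells, *Pim1* as higher and *Stat5b*, *Epor* and *Jak2* as lower. In *Ypel4*-/- cells 4 were called as well, but as 1 higher (*Pim1*) and 3 lower (*Stat5b*, *Epor* and *Jak2*), without *Cish*. *Kit* and *Socs1* fell under the filter in both genotypes and *Socs3* in *Ypel4*+/+ cells, and *Stat5a*, *Lyn*, *Cish* and, where tested, *Socs3* were tested on few counts.

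The question of the genotype comparison was whether loss of *Ypel4* changes these genes at either stage, and no member passed the test. In Poly-E 8 members were tested and 0 were called by edgeR, beside 0.00807% of all genes (1 of 12395, *Ypel4* itself). In Ortho-E 7 were tested and 0 were called, beside 0.0285% of all genes (3 of 10521, 0.0095% higher and 0.019% lower). At an unadjusted p under 0.05 there were 0 members in either population, beside 2.19% and 3.68% of all genes, and DESeq2 called 0 members as well. For the well measured genes the intervals were narrow. In Poly-E the 95% interval of the log2 fold change was -0.33 to 0.16 for *Epor*, -0.31 to 0.12 for *Jak2*, -0.40 to 0.13 for *Pim1* and -0.38 to 0.30 for *Stat5b*. In Ortho-E it was -0.16 to 0.26 for *Epor*, -0.06 to 0.40 for *Jak2* and -0.28 to 0.11 for *Pim1*.

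For the scarce members the intervals were wide. *Cish* in Ortho-E had a log2 fold change of 0.92 (95% interval -0.10 to 1.93, unadjusted p = 0.0752 and adjusted p = 0.996, edgeR), and *Lyn* had 0.72 (95% interval -0.48 to 1.92). Both intervals include a log2 fold change of 0 and of 1. The interaction of genotype and population called 0 of 13318 genes by edgeR (0%), with 364 genes but 0 members at an unadjusted p under 0.05, and 1 gene by DESeq2. The largest interaction among *Epor*, *Jak2*, *Stat5b* and *Pim1* was that of *Stat5b*, 0.33 (SE 0.39, adjusted p = 1.00, edgeR).

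**Figure D3:**
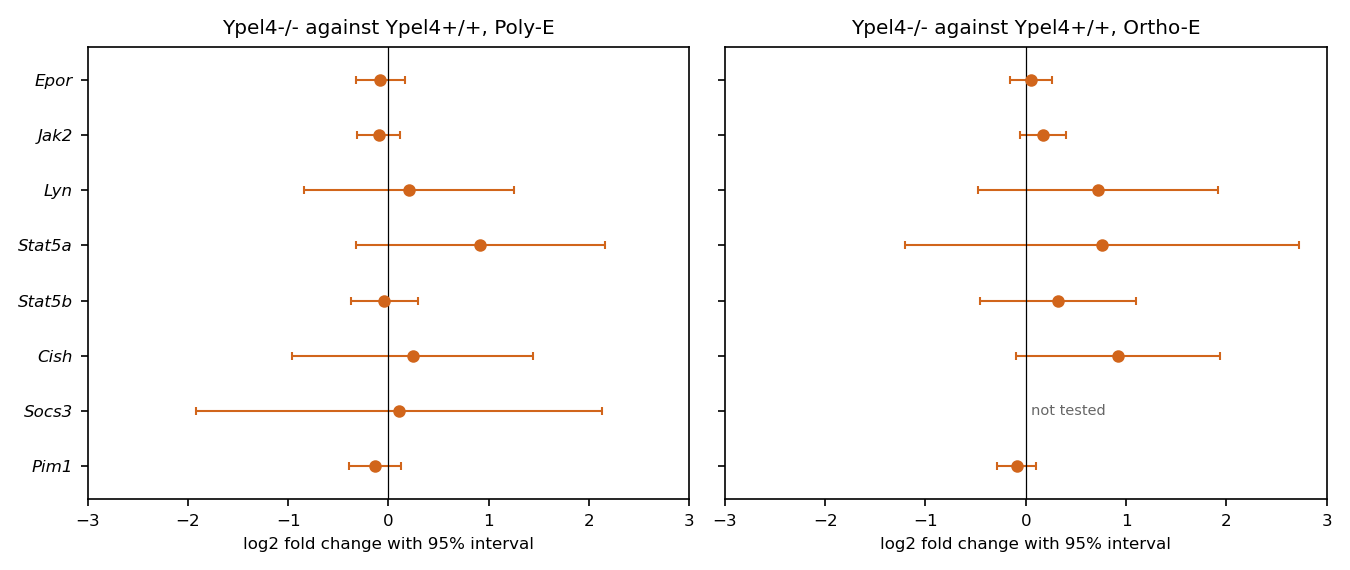
Log2 fold change of *Ypel4*-/- against *Ypel4*+/+ (x axis) with its 95% interval for the 8 members tested (y axis), in Poly-E (left) and Ortho-E (right), edgeR with TMM scaling. Every interval crosses 0, those of *Epor*, *Jak2* and *Pim1* lie within 0.40 of it, and those of *Stat5a*, *Cish*, *Lyn* and *Socs3* are several times wider.

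Around the 10 members, 73 genes of 7 lists place them in their pathway. Of 62 tested in *Ypel4*+/+ cells 20 rose and 17 fell in Ortho-E (59.7%, beside 58.5% of all genes), and of 61 in *Ypel4*-/- cells 20 rose and 18 fell (62.3%, beside 61%), so the lists as a whole moved about as often as other genes. No gene of the lists was called between genotypes in Poly-E or Ortho-E by edgeR, 60 being tested in each. Beside genes with the highest or lowest called value of a list, the genes named here were chosen after their values were seen, and values are log2 fold changes of Ortho-E against Poly-E in *Ypel4*+/+ and then *Ypel4*-/- cells.

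Of 19 adaptors and kinases that carry the signal inward, 5 rose and 5 fell in *Ypel4*+/+ and 4 rose and 5 fell in *Ypel4*-/- cells, with medians of -0.07 and 0.07. *Pik3r1*, the regulatory subunit of PI3 kinase, rose the most, by 2.60 and 2.97, from 352 ± 43.3 to 878 ± 62.2 CPM in *Ypel4*+/+ cells (SD, n = 4). *Foxo3*, a transcription factor that AKT holds back, rose by 2.12 and 2.35, *Irs2* by 1.79 and 2.07, and *Pik3ca*, the catalytic subunit, by 1.596 and 1.796, although in *Ypel4*+/+ cells it did not pass with library totals (0.31, adjusted p = 0.051, edgeR). *Gab1*, a docking protein, fell by 1.90 and 2.19, *Akt1* by 1.82 and 1.87, and the adaptor *Shc1* fell by 1.403 and 1.136. *Ptpn11*, the phosphatase SHP2, fell by 0.65 and 0.42, and *Tfr2*, which binds EPOR, by 0.52 and 0.67. The *Ypel4*+/+ call of *Tfr2* was lost without Poly-E replicate 3 or 4 (-0.38 and -0.36, adjusted p = 0.0687 and 0.0933, edgeR). *Tec* passed the test in *Ypel4*+/+ cells with 2.14 (adjusted p = 0.0331, edgeR), on 7 Poly-E and 10 Ortho-E counts, and no longer did so without Poly-E replicate 3 or Ortho-E replicate 1 or 3 (1.603 to 2.011, adjusted p = 0.0715 to 0.197).

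Of 9 RAS and MAP kinase genes 2 rose and 5 fell in each genotype, with medians of -0.82 and -0.71. *Mapk3* (ERK1) fell by 1.97 and 1.90 and *Hras* fell by 1.401 and 1.278. *Map2k2* (MEK2) had 0.52 and 0.51 and *Nras* 0.44 and 0.50, both higher with TMM, but both were lower with library totals. *Nras* did not pass without Ortho-E replicate 1 in *Ypel4*+/+ (0.36, adjusted p = 0.0687, edgeR) or Ortho-E replicate 4 in *Ypel4*-/- cells (0.35, adjusted p = 0.0821). *Braf* and *Map2k1* did not pass the test in either genotype.

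Of 14 negative regulators 12 were tested, and 5 rose and 4 fell in *Ypel4*+/+ and 6 rose and 4 fell in *Ypel4*-/- cells, with medians of 0.51 and 0.84. *Inpp5d* (the phosphatase SHIP1) rose by 2.80 and 2.72, from 17.6 ± 1.33 to 50.2 ± 8.08 CPM in *Ypel4*+/+ cells (SD, n = 4), and the ubiquitin ligase *Cblb* rose by 2.16 and 2.42. Its relative *Cbl*, which marks activated KIT for breakdown, fell by 1.57 and 1.39. *Dok2* had 3.49 and 2.64, the highest value in *Ypel4*+/+ cells but on 4 and 16 counts there, and in *Ypel4*-/- cells it did not pass with library totals (1.339, adjusted p = 0.146, edgeR). *Spred2* had the lowest in both genotypes, -2.42 and -2.57, with *Spred1* at -2.03 and -2.18 and the phosphatase *Ptpn1* at -1.18 and -1.28. *Sh2b3* (LNK), which restrains JAK2, had 0.98 and 0.87 and *Dok1* 0.87 and 1.12, and both were below 0 with library totals. *Ptprc* (CD45), a phosphatase of white cells, passed the test in *Ypel4*-/- cells, with 1.34 (adjusted p = 0.000125, edgeR) against 0.50 (adjusted p = 0.183) in *Ypel4*+/+ cells, and an interaction of 0.71 (adjusted p = 1.00). With library totals *Ptprc* had -0.78 in *Ypel4*+/+ and -0.0759 in *Ypel4*-/- cells. With filterByExpr it passed in *Ypel4*+/+ cells too (0.68, adjusted p = 0.0383), and the part of B cells, whose marker sums are given with *Lyn*, was not tested.

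Of 14 genes known as EPO or STAT5 targets 10 were tested, and they split. In *Ypel4*+/+ cells 4 rose and 3 fell, in *Ypel4*-/- cells 4 rose and 4 fell, and the medians were 0.35 and -0.34. *Bcl2l1*, which encodes the survival protein BCL-XL, rose by 3.81 and 4.15, more than *Pim1*, from 333 ± 94.3 to 1928 ± 102 CPM in *Ypel4*+/+ and from 290 ± 56.4 to 1921 ± 95.2 CPM in *Ypel4*-/- cells (SD, n = 4). *Pim2* rose by 2.07 and 2.20, the transferrin receptor *Tfrc* by 1.38 and 1.53, and *Trib3* by 1.29 and 2.51. *Fam132b*, which encodes erythroferrone, fell by 1.91 and 2.54, from 8.07 ± 2.38 to 0.846 ± 0.636 CPM in *Ypel4*+/+ cells (SD, n = 4). The cyclin gene *Ccnd3* fell by 1.71 and 1.75 and the transcription factor gene *Gfi1b* fell by 1.601 and 1.426. *Myc* passed the test in *Ypel4*-/- cells, with -2.18 (adjusted p = 0.0229, edgeR) on 42 and 3 counts, against -0.05 in *Ypel4*+/+ cells and an interaction of -2.24 (adjusted p = 1.00). It did not pass without Poly-E replicate 1 or Ortho-E replicate 3 or 4 (-1.93 to -1.53, adjusted p = 0.0569 to 0.133). The *Ypel4*+/+ call of *Trib3* was lost without Poly-E replicate 3 or 4 or Ortho-E replicate 2 or 3 (0.88 to 1.27, adjusted p = 0.0622 to 0.177, edgeR). With library totals *Tfrc* and *Trib3* no longer passed in *Ypel4*+/+ cells, at 0.10 and 0.02, nor *Tfrc* in *Ypel4*-/- cells, at 0.11.

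Of 8 other JAK and STAT genes 7 were tested, and 4 rose and 0 fell in each genotype, with medians of 1.09 and 1.07. Among them were *Stat6* with 2.26 and 1.97, *Jak1* with 1.63 and 1.86, and *Stat2* with 1.09 and 1.07, the last lower with library totals. With TMM scaling *Stat5b* was the 1 tested gene of the JAK and STAT families, members included, that was called as lower. *Tyk2* (-0.32 and -0.06) and, in *Ypel4*-/- cells, *Stat3* (-0.05) lay below 0 without a call. In plain CPM *Jak1* went from 219 ± 21.1 in Poly-E to 278 ± 18.3 in Ortho-E and *Stat6* from 7.24 ± 0.754 to 14.5 ± 0.574 in *Ypel4*+/+ cells (SD, n = 4). Of 7 other SRC family kinases 5 were tested in *Ypel4*+/+ and 4 in *Ypel4*-/- cells, and 0 were called by edgeR. *Lck*, known from T cells, was at 8.06 ± 0.940 CPM in *Ypel4*+/+ Poly-E (SD, n = 4), and the 6 T cell markers summed to 0.271 to 0.597 CPM in the same libraries, with *Cd3e* and *Cd3g* at 0. The part of T cells in the *Lck* counts was not tested.

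**Figure D4:**
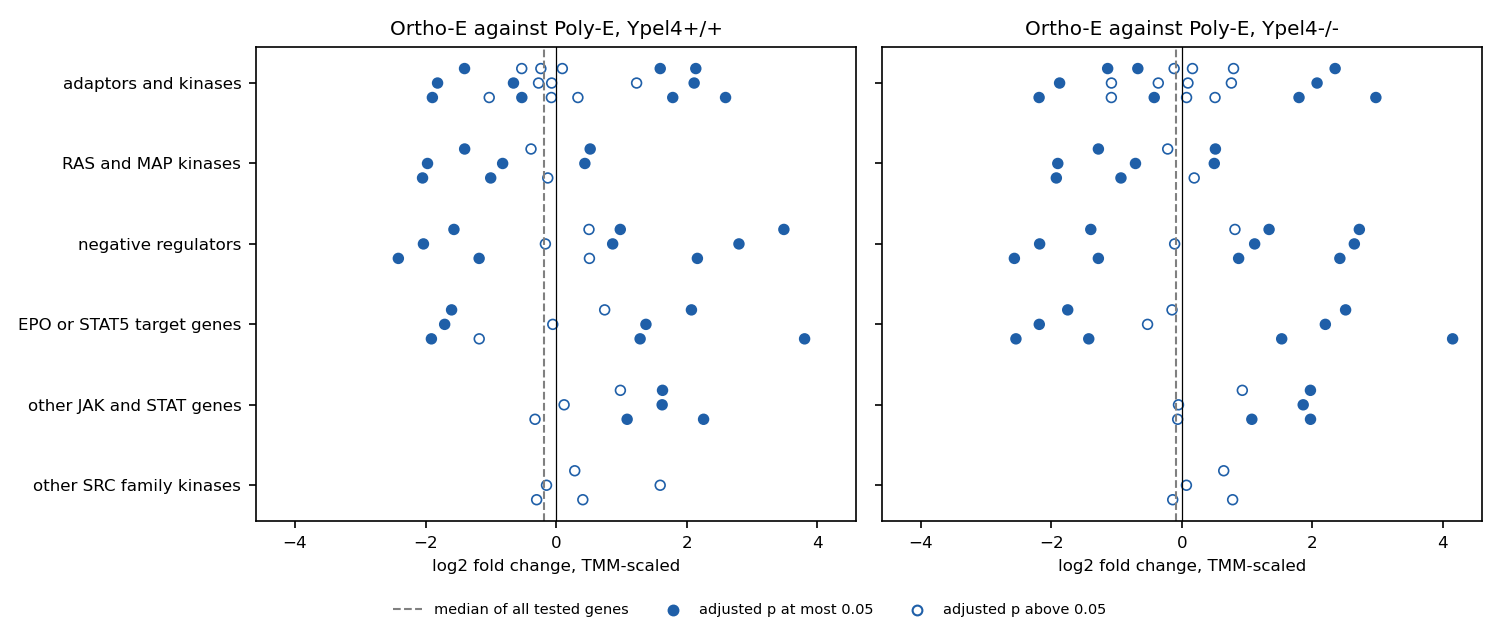
Log2 fold change of Ortho-E against Poly-E with TMM scaling (x axis) for every tested gene of the 6 pathway lists with tested genes (y axis), in *Ypel4*+/+ (left) and *Ypel4*-/- cells (right); filled points passed an adjusted p of 0.05 and the dashed line is the median of all tested genes. The RAS and MAP kinases lie mostly to the left of the line, the 4 called JAK and STAT genes to the right, and the target genes on both sides, with *Bcl2l1* farthest right at 3.81 and 4.15.

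The genes whose TMM-scaled level followed that of *Epor* most closely over the 16 libraries were *Htra2* (r = 0.904), *Atg4d* (r = 0.902) and *Sphk1* (r = 0.887) among 5278 genes whose average reached 50 counts. The points share libraries, depth and scaling, and the values are a description. For *Kit*, with 5 counts, the closest were *Rfesd* (r = 0.874), *Asns* (r = 0.855) and *Uqcrh* (r = 0.850). These values cannot be read as a likeness to *Kit*. Before scaling 2 counts were added, so that libraries without a count of *Kit* differed only by their TMM-scaled size.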

How the data were processed

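Counts per gene for 16 libraries of sorted *Ypel4*+/+ and *Ypel4*-/- Poly-E and Ortho-E cells were deposited by the authors, who aligned the reads to mouse GRCm38 with the nf-core RNA-seq workflow and counted them with featureCounts 1.6.4 without regard to strand, leaving out reads that map to several places. The counts are raw. Totals ran from 2670173 to 12451234 per library, which limits genes of few counts, and a group at 0 allows up to 3 counts. Intervals and floors cover counting error only where given as such.

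Genes whose counts in the 8 libraries compared (16 for the interaction) summed to 10 or more were tested with the edgeR 4.0.16 quasi-likelihood test (R 4.3.3) with TMM scaling, and p-values were adjusted by the Benjamini-Hochberg method over all genes tested, with a threshold of 0.05. CPM used library totals. Levels between genes were divided by exon length. Per-mouse changes are log2 of TMM-scaled CPM plus 0.5. The fits were also run on simulated counts in which a small set of genes changed by known folds. That setting lacked the broad shift between Poly-E and Ortho-E, so it could not test the scaling.

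Each comparison was fitted without a block, and with the replicate number as a block as an alternative. Deviations from the group means over 7852 genes correlated between same-numbered Poly-E and Ortho-E libraries at 0.212 to 0.361 in *Ypel4*+/+ and 0.057 to 0.308 in *Ypel4*-/- mice. For other numbers the correlation reached 0.264 and 0.147. *Ypel4*-/- Poly-E replicate 2 correlated more with Ortho-E replicate 1 (0.147) than with Ortho-E replicate 2 (0.057). Sample names that share a further number point to 1 mouse. Between genotypes the correlation was 0.16 to 0.446 in Poly-E, where it also reached 0.409 for other numbers, and -0.048 to 0.169 in Ortho-E. Other alternatives were DESeq2 1.42.0, its size factors in edgeR, library totals, other filters, all 16 libraries in 1 fit, a term for replicates 1 and 2 against 3 and 4, and leaving out each library.

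The 10 members and all gene lists were chosen with earlier results of these data known. Named genes were all members, the ligands, the called gene with the largest rise and fall in each pathway list, and the 3 genes most like *Epor* and *Kit*. Other genes were named after their values were seen. Some genes of the lists are counted but not reported here by name. Promoter sequences came from RefSeq (GRCm38.p6).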

Additional observations from a re-analysis of the deposited data

Results flagged for a closer look

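Within groups of 4 libraries, 8 values lay far from the other 3, measured as the gap to the nearest library over the range of the group, among 37 combinations of gene and group with differing values. Chance alone marks about 1 in 20 groups of normally distributed values, a rate that does not hold for scarce counts. A group with 3 libraries at 0 and a count in 1 is always marked. *Epor* was highest in *Ypel4*-/- Poly-E replicate 4, at 624 CPM against 518 CPM in the nearest library, and *Pim1* in *Ypel4*-/- Poly-E replicate 3, at 474 against 382 CPM. The other 6 values rest on 0 to 3 counts. *Kit* stood at 0.597 CPM (2 counts) in *Ypel4*+/+ Poly-E replicate 2. *Socs1* stood at 0.298 CPM (3 counts) in *Ypel4*+/+ Poly-E replicate 3, at 0.0803 CPM (1 count) in *Ypel4*-/- Poly-E replicate 4 and at 0.222 CPM (1 count) in *Ypel4*+/+ Ortho-E replicate 3. *Socs3* stood at 0.375 CPM (1 count) in *Ypel4*+/+ Ortho-E replicate 2, and at 0.0 CPM in *Ypel4*-/- Ortho-E replicate 1, where the nearest library had 0.207 CPM.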

How the results depend on the processing

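The calls of *Pim1* as higher and *Stat5b* as lower in Ortho-E held in both genotypes under every alternative run, and no member was called between genotypes or for the interaction under any of them. With library totals 4 members were called in *Ypel4*+/+ cells against 2. The sign then turned in *Ypel4*+/+ cells for *Jak2* (-1.16), *Stat5a* (-0.84), *Cish* (-1.02), *Lyn* (-0.82), *Nras* (-0.84), *Map2k2* (-0.76), *Sh2b3* (-0.30), *Dok1* (-0.42), *Stat2* (-0.20) and *Ptprc* (-0.78). In *Ypel4*-/- cells it turned for *Epor* (-1.20), *Jak2* (-0.92), *Stat5a* (-1.01), *Cish* (-0.39), *Socs3* (-0.78), *Lyn* (-0.31), *Nras* (-0.92), *Map2k2* (-0.91), *Sh2b3* (-0.53), *Dok1* (-0.30), *Stat2* (-0.34) and *Ptprc* (-0.0759), and between genotypes in Poly-E for *Stat5b* (0.0089). By construction this scaling moves the median of all genes.

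In *Ypel4*+/+ cells *Epor* turned to 0.10 with DESeq2, 0.10 with its size factors and 0.15 with filterByExpr, and *Myc* to 0.16 with DESeq2, 0.0774 with its size factors and 0.0348 with the replicate block. For these the cause was not tested. Genes called between genotypes in Poly-E numbered 1, against 2 with DESeq2, 4 with no filter, 4 with the replicate block, 3 with all 16 libraries and 3 with the term for replicates 1 and 2. In Ortho-E they numbered 3, against 5 with no filter and 15 with the replicate block, and for the interaction 0, against 1 with DESeq2 and 1 with the replicate block. Among the named genes the block changed the calls of *Epor* in *Ypel4*-/- cells (0.21, adjusted p = 0.0271) and of *Ypel4* in Poly-E (-5.19, adjusted p = 0.286), both by edgeR, and no other call.

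Leaving out 1 library at a time gave 6343 to 6901 genes and 2 to 3 members called in *Ypel4*+/+ cells, 6780 to 7225 genes and 3 to 4 members in *Ypel4*-/- cells, 1 to 2 genes between genotypes in Poly-E, 3 to 4 in Ortho-E and 0 to 1 for the interaction. The sign turned within these ranges for *Epor* (-0.0865 to 0.14), *Stat5a* (-0.18 to 0.70), *Cish* (-0.56 to 1.11) and *Myc* (-0.28 to 0.47) in *Ypel4*+/+ cells and *Tec* (-0.0497 to 0.29, tested in 3 of these fits) in *Ypel4*-/- cells. Between genotypes in Poly-E it turned for *Stat5b* (-0.14 to 0.0740), *Cish* (-0.23 to 1.02) and *Socs3* (-0.58 to 0.65), and in the interaction for *Stat5a* (-0.44 to 0.42), *Cish* (-0.0427 to 1.46) and *Pim1* (-0.0236 to 0.19). Per kilobase of the longest transcript *Stat5a* was at 0.105, 0.220 and 0.0935 CPM in *Ypel4*+/+ Poly-E, *Ypel4*-/- Poly-E and *Ypel4*-/- Ortho-E, against 0.058, 0.122 and 0.0519 per kilobase of exon. *Kit* and *Socs1* were below the filter, and depth limits *Stat5a*, *Socs3*, *Lyn* and *Cish*.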
